A study of Mus musculus with 11 samples.

Results

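The Hedgehog pathway is described here through 9 genes: the ligands Shh, Ihh and Dhh, the receptor Ptch1, the signal transducer Smo, the transcription factors Gli1, Gli2 and Gli3, and the ligand-binding antagonist Hhip. They were found by symbol among the 54232 genes of the count table, and all 9 had an entry. Expression had been measured by bulk RNA sequencing of orthotopic pancreatic tumours, 6 from PKN2 KO hosts (KO replicates A to F) and 5 from PKN2 WT hosts (WT replicates A to E). All hosts were adult, age-matched female C57BL/6 mice heterozygous for Rosa26 CreERT2, a Cre recombinase that is expressed in most cell types and activated by tamoxifen. KO hosts were homozygous for a floxed PKN2 allele and WT hosts carried wild-type PKN2, and both groups received the same tamoxifen course. Deletion was therefore not limited to fibroblasts but could occur in any host cell. Every tumour was grown from TB32048, a carcinoma line of a female KPC mouse with intact PKN2, injected into the pancreas in medium and Matrigel. Carcinoma and host cells are both of mouse origin, so a read from a Hedgehog gene cannot be assigned to either, and in bulk tumours fewer cells of a type and less RNA per cell cannot be told apart.

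Hedgehog ligands are secreted, lipid-modified proteins that bind Patched receptors. In the absence of ligand PTCH1 holds SMO inactive, and GLI2 and GLI3 are processed to repressors at the primary cilium; ligand binding releases SMO, and full-length GLI proteins then activate transcription. Gli1, Ptch1 and Hhip are themselves transcriptional targets and are widely read as the output of the pathway. In pancreatic carcinoma, ligand is known to be made by the epithelium and the response to lie mainly in the surrounding fibroblasts, whereas normal adult pancreas has little of either.

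The 3 ligands are close relatives, and it matters for the values below whether their reads can be told apart. A stretch of 120 coding bases in the signalling domain, taken from GENCODE M21 transcripts, is shown for each ligand, with bases shared by all 3 in capitals. It crosses an exon junction in each gene and lies on the minus strand of GRCm38, at chr5:28461476-28466472 for Shh, chr1:74948458-74950911 for Ihh and chr15:98894967-98897981 for Dhh.
Shh: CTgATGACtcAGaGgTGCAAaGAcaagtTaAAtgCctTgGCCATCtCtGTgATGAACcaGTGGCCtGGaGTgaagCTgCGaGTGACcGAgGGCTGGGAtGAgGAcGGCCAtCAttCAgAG
Ihh: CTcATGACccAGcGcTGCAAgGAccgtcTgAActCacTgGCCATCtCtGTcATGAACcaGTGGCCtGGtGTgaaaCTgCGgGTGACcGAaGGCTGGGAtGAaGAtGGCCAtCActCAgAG
Dhh: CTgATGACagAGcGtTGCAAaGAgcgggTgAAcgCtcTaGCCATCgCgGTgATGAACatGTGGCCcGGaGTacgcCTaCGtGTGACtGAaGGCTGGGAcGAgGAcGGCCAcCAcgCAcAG
Of these 120 bases, 81 are the same in all 3 genes. Over the whole aligned coding sequence 71.78% of bases were identical between Shh and Ihh, 72.73% between Shh and Dhh and 67.71% between Ihh and Dhh, and the longest run that any 2 ligands shared exactly was 17 bases. Between Gli genes the longest shared run was 25 bases, for Gli2 and Gli3. Counts of uniquely aligned read pairs can be assigned to single members at that degree of similarity.

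All 9 genes are protein coding. On GRCm38, Shh (ENSMUSG00000002633) lies on chromosome 5, 28456815 to 28467256, minus strand, Ihh (ENSMUSG00000006538) on chromosome 1, 74945315 to 74951672, minus strand, and Dhh (ENSMUSG00000023000) on chromosome 15, 98891152 to 98898540, minus strand. Ptch1 (ENSMUSG00000021466) lies on chromosome 13, 63508328 to 63573598, minus strand, Smo (ENSMUSG00000001761) on chromosome 6, 29735503 to 29761365, plus strand, and Hhip (ENSMUSG00000064325) on chromosome 8, 79965851 to 80058006, minus strand. Gli1 (ENSMUSG00000025407) lies on chromosome 10, 127329882 to 127341974, minus strand, Gli2 (ENSMUSG00000048402) on chromosome 1, 118834132 to 119053619, minus strand, and Gli3 (ENSMUSG00000021318) on chromosome 13, 15463235 to 15730026, plus strand. Exons of Ihh, Ptch1, Smo and Gli2 overlap no other annotated exon. Shh shares 807 exon bases with the antisense genes 9530036O11Rik and Gm26894, and Dhh shares 546 with Rhebl1 on its own strand and 1107 with the antisense gene Gm49442. Gli1, Gli3 and Hhip share 327, 188 and 175 bases with antisense genes. The kit marked strand, but the strand setting of the counting is not given in the sources used here, so the split of reads at these overlaps is uncertain.

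The libraries held between 22791627 and 28017673 counts for KO hosts (n = 6) and between 16294128 and 31121422 for WT hosts (n = 5). Values are given as CPM, the usual depth-scaled count, on TMM-scaled library sizes, and levels of different genes are compared only as CPM per kilobase (kb) of annotated exon. A few WT libraries stood apart. Nuclear and mitochondrial ribosomal RNA took 0.308% to 0.739% of counts in KO tumours and up to 6.39% in WT tumours (WT replicate B). In a tumour, the Spearman correlation across genes between exon length and deviation from the mean of that gene was -0.50 in WT replicate A, -0.46 in WT replicate B and -0.18 in WT replicate C, and between 0.12 and 0.41 in the other tumours, so long genes were comparatively low in those 3 libraries. Pkn2 could not serve as a check of the genotype labels, because the carcinoma cells keep it. Markers of the labelled tissue were present: all 8 carcinoma epithelium markers and all 10 fibroblast markers passed the filter on low counts, with summed levels of 2721.6 to 9473.9 CPM and 2606.8 to 9679.2 CPM across the 11 tumours. The mean log2(CPM + 1) of the epithelial markers was lowest in WT replicate B, at 6.04, and between 7.35 and 9.18 in the other tumours.

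To describe how much of each member the tumours contained, levels per kb of exon were compared. Smo was highest, at 13.1 ± 3.98 CPM per kb (SD over all 11 tumours), followed by Dhh at 4.75 ± 1.54, Ihh at 2.54 ± 2.19, Shh at 1.84 ± 1.60 and Ptch1 at 1.55 ± 0.62 CPM per kb. The transcription factors came next, with Gli3 at 0.547 ± 0.237, Gli2 at 0.429 ± 0.158 and Gli1 at 0.365 ± 0.253 CPM per kb. Neighbours in that order overlapped in range in every case except Gli1 and Hhip. Smo exceeded Dhh in 10 of 11 tumours, Dhh exceeded Ihh in 9, Ihh exceeded Shh in 7 and Shh exceeded Ptch1 in 6, whereas Ptch1 exceeded Gli3 in all 11. With the longest transcript in place of the union of exons as the length, Smo was at 19.5 CPM per kb, Ptch1 moved ahead of Shh and Gli1 ahead of Gli2.

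Hhip was at the floor of detection. Its raw count was 0 in all 6 KO tumours and in WT replicates A, B and D, and 1 in WT replicates C and E. A limit of 3 counts corresponds to 0.0964 to 0.184 CPM in these libraries, so that Hhip lay below the limit everywhere and no fold change is given. It did not pass the filter on low counts, and the other 8 members did.

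The ligands were examined next. Dhh, known best for its role in Schwann cells and the testis, was the ligand with the highest level per kb in 9 of 11 tumours and made up 58.9 ± 21.7% of summed ligand RNA per kb (SD, n = 11). Ihh, the ligand of cartilage and gut epithelium, was highest in KO replicate E (46.2%) and WT replicate D (40.4%), and Shh, the ligand most often studied in pancreatic carcinoma, in none. The share of Dhh ran from 28.6% in WT replicate D to 88.0% in KO replicate C, that of Ihh from 4.39% to 46.2% and that of Shh from 4.15% to 33.4%. By genotype, Dhh took 53.6 ± 19.7% (SD, n = 6, KO) and 65.2 ± 24.7% (SD, n = 5, WT). Its share ran from 37.4% to 88.0% in KO and from 28.6% to 86.7% in WT tumours, and the difference was not tested.

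**Figure D1:**
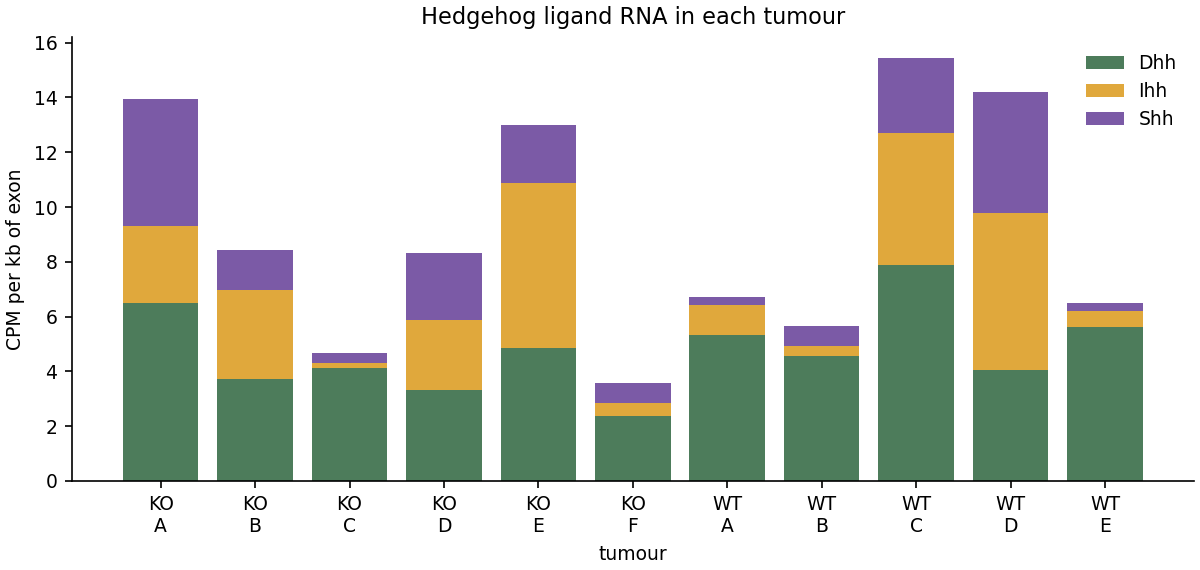
Summed level of the ligands Dhh, Ihh and Shh in each of the 11 tumours, in CPM per kb of exon, stacked by ligand; each bar is 1 tumour. Relative to its mean level, the Dhh segment varies least from tumour to tumour. The Ihh and Shh segments are tall in KO replicates A, B, D and E and WT replicates C and D. They are short in the other 5 tumours.

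Relative to their mean level, Shh and Ihh varied far more between tumours than Dhh. In KO tumours Shh ranged from 1.01 (replicate C) to 13.3 CPM (replicate A), with a median of 5.13. WT replicates A to E had 0.823, 2.08, 7.85, 12.6 and 0.767 CPM of Shh. The highest Shh level was 17.3 times the lowest, and both groups held high and low tumours.

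Ihh ranged from 0.625 (replicate C) to 18.3 CPM (replicate E) in KO tumours, with a median of 8.20. In WT replicates A to E its level was 3.38, 1.17, 14.7, 17.5 and 1.80 CPM. That is a 29.3-fold range over the 11 tumours, the widest of any tested member, and high and low tumours occurred in both groups.

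Dhh ranged only 3.35-fold, from 10.3 (replicate F) to 28.5 CPM (replicate A) in KO tumours, with a median of 17.2. WT replicates A to E had 23.4, 19.998, 34.6, 17.8 and 24.8 CPM of Dhh. All 5 WT values were above the KO median, but KO replicate A exceeded every WT tumour except replicate C, and the groups overlapped.

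The same tumours were high in Shh and in Ihh. In KO replicates A, B, D and E and WT replicates C and D, Shh was between 4.17 and 13.3 CPM and Ihh between 7.79 and 18.3 CPM. In KO replicates C and F and WT replicates A, B and E, Shh was between 0.767 and 2.08 CPM and Ihh between 0.625 and 3.38 CPM. The tumours thus fell into an upper set of 6 and a lower set of 5 with a gap between them in both genes. On the log2(CPM + 1) scale Shh and Ihh had r = 0.84 over 11 tumours (permutation test, two-sided, p = 0.00347, adjusted over 28 pairs of members p = 0.0512) and Spearman's rho = 0.67 (adjusted permutation p = 0.119), the largest Pearson coefficient between members, which did not pass the adjusted threshold. It was 0.80 within the 6 KO tumours (exact permutation p = 0.0569, not adjusted) and 0.87 without WT replicates A and E. These coefficients include the gap between the sets. The sets were drawn from these values after they had been seen, and no test was made within them. Each set holds both genotypes, 4 KO and 2 WT tumours in the upper and 2 KO and 3 WT in the lower. The antisense gene Gm26894, with which Shh shares exon bases, followed Shh across the tumours (r = 0.94, n = 11). Its level ran from 0.337 (KO replicate C) to 5.50 CPM per kb of exon (WT replicate C). That of Shh ran from 0.270 (WT replicate E) to 4.65 CPM per kb (KO replicate A). Rhebl1, which shares exon bases with Dhh, did not follow it closely (r = 0.37, n = 11).

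Ptch1, the receptor and a target gene, ranged from 15.3 (replicate C) to 28.6 CPM (replicate E) in KO tumours, with a median of 24.2. WT replicates A to E had 9.10, 9.83, 16.5, 36.5 and 29.2 CPM. WT replicates A and B lay below all KO tumours and WT replicates D and E above them, with WT replicate C among them.

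Smo, the transducer, ranged from 59.8 (replicate F) to 93.7 CPM (replicate E) in KO tumours, with a median of 79.4, and was 37.2, 87.8, 37.8, 111 and 72.5 CPM in WT replicates A to E. WT replicates A and C were the lowest tumours and WT replicate D the highest, with all KO tumours between.

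Gli1, the target and amplifier of the response, was sparse, with between 9 and 120 counts in a tumour. In KO tumours it ranged from 0.764 (replicate C) to 3.75 CPM (replicate B), with a median of 1.53, and in WT replicates A to E it was 0.910, 0.750, 1.32, 4.69 and 1.71 CPM. WT replicate D and KO replicate B stood above the remaining 9 tumours, none of which exceeded 1.95 CPM.

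Gli2, the main activator, ranged from 2.15 (replicate E) to 4.56 CPM (replicate B) in KO tumours, with a median of 3.32, and was 1.86, 1.75, 1.42, 4.03 and 3.22 CPM in WT replicates A to E. WT replicates A, B and C were below every KO tumour and WT replicates D and E were among them. Gli3, best known as a repressor, ranged from 2.59 (replicate A) to 5.89 CPM (replicate D) in KO tumours, with a median of 4.84, and was 2.90, 3.75, 4.81, 9.11 and 9.65 CPM in WT replicates A to E. WT replicates D and E were above every KO tumour and the other WT tumours lay among them.

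**Figure D2:**
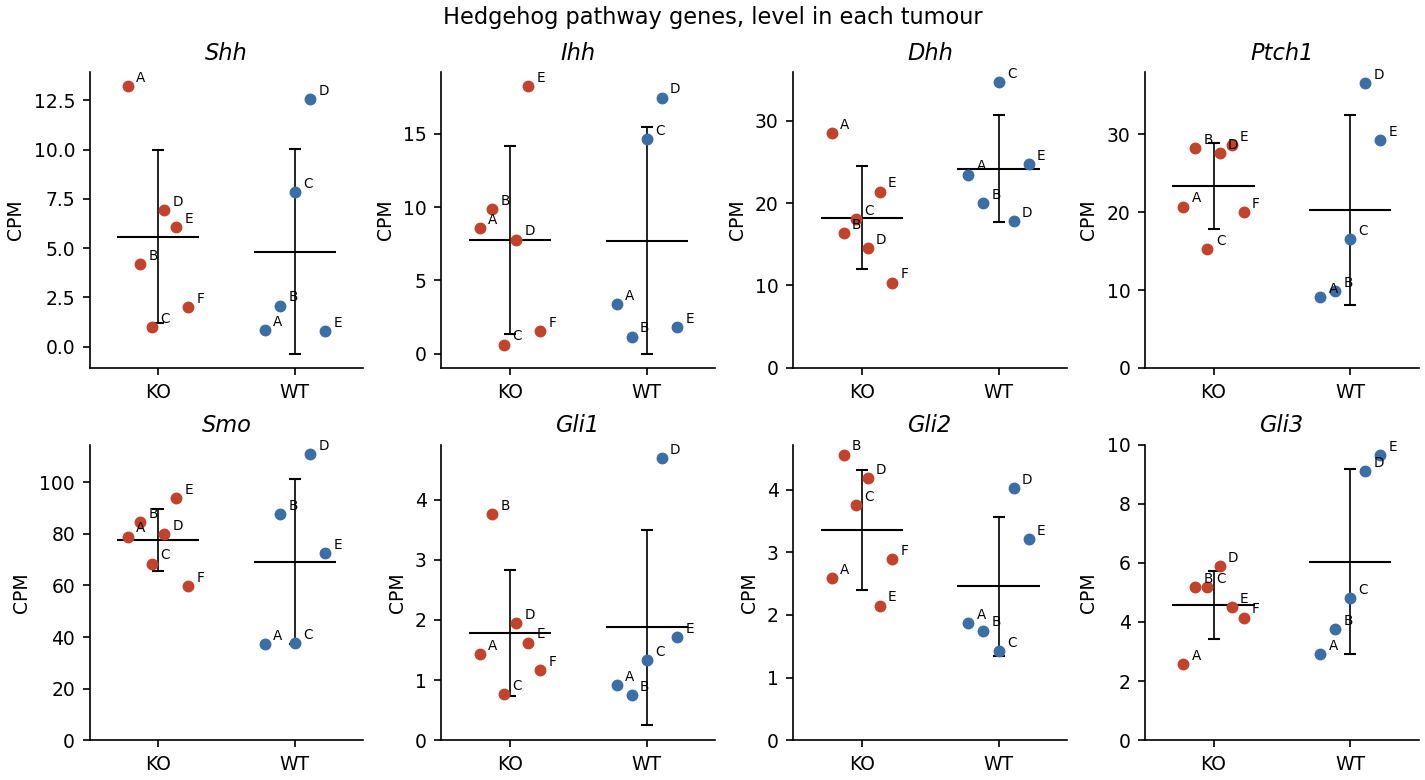
Level of each tested member in CPM (linear axis) in KO tumours (red, n = 6) and WT tumours (blue, n = 5); letters are replicates, horizontal bars are group means and whiskers are 1 SD. In each panel the ranges of KO and WT tumours overlap, and WT tumours are spread more widely than KO tumours for Ptch1, Smo and Gli3.

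To ask whether deletion of PKN2 in the host altered expression of the pathway, KO and WT tumours were compared with the quasi-likelihood test of edgeR across 16536 genes. None of the 8 tested members passed an adjusted p of 0.05, in either direction, and 0 of 8 had an unadjusted p under 0.05 (edgeR). The background for this count is low for adjusted p and high for unadjusted p. Over all tested genes 0.0181% were called higher and 0% lower after adjustment, whereas 24% had an unadjusted p under 0.05, 8.57% higher and 15.5% lower. DESeq2 also called 0 members after adjustment, although it called 3.21% of the genes to which it gave an adjusted p higher and 4.85% lower. No member had groups that did not overlap in CPM, beside 1.59% of all tested genes without overlap and higher in KO tumours and 2.01% without overlap and lower.

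Gli2 had the largest positive log2 fold change of KO over WT tumours, 0.44 (SE 0.34, 95% interval -0.28 to 1.17, edgeR quasi-likelihood test with Benjamini-Hochberg adjustment, adjusted p = 0.431). Dhh had the largest negative one and the smallest p, -0.41 (SE 0.25, 95% interval -0.95 to 0.14, edgeR unadjusted p = 0.132, adjusted p = 0.336). Gli3 had a log2 fold change of -0.41 as well, with a wider interval, -1.15 to 0.34 (edgeR adjusted p = 0.483). Mean KO and WT levels were 3.35 ± 0.953 and 2.46 ± 1.11 CPM for Gli2 (SD, n = 6 and 5), and 18.2 ± 6.24 and 24.1 ± 6.48 CPM for Dhh.

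The target genes Ptch1 and Gli1 and the transducer Smo were close to 0 in log2 fold change but not all tightly bounded. The log2 fold change was 0.20 for Ptch1 (SE 0.35, 95% interval -0.55 to 0.96, edgeR adjusted p = 0.744) and 0.16 for Smo (SE 0.27, -0.42 to 0.75, adjusted p = 0.738). For Gli1 it was -0.09 (SE 0.52, -1.21 to 1.03, edgeR adjusted p = 0.933). Intervals of Shh and Ihh were widest, -1.45 to 1.87 around 0.21 for Shh and -1.75 to 1.78 around 0.01 for Ihh (edgeR adjusted p = 0.890 and 0.995). A 2-fold difference of Shh, Ihh or Gli1 in either direction lies inside its interval, and these values therefore do not show that KO and WT tumours were alike.

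**Figure D3:**
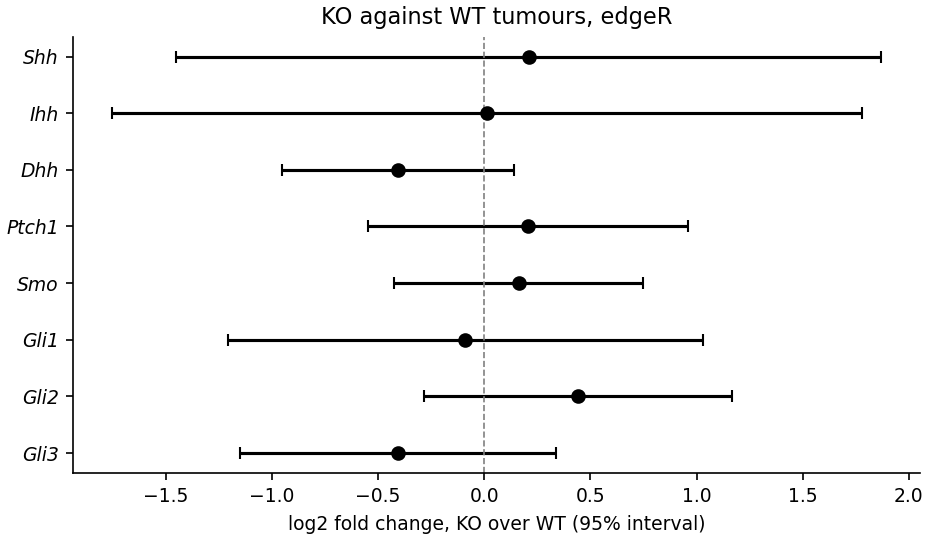
Log2 fold change of KO over WT tumours for the 8 tested members from the edgeR fit over 11 tumours, with 95% intervals as horizontal bars. Each interval includes 0, and those of Shh, Ihh and Gli1 are the widest.

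Some fold changes rested on the composition of the WT group. Without WT replicate D the log2 fold change of Gli1 was 0.58 in place of -0.09, that of Shh 0.96 in place of 0.21 and that of Ptch1 0.53, none with an adjusted p under 0.05 (edgeR). Without WT replicates A and B, in which long genes were low, Ptch1 was at -0.23, Shh at -0.34, Gli2 at 0.21 in place of 0.44 and Gli3 at -0.78. Gli3 then had an unadjusted p under 0.05, as Dhh had without KO replicate A, and no member passed the adjusted threshold under any of 19 alternative settings (18 for Gli1).

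Members were then compared with each other across tumours on the log2(CPM + 1) scale, in 28 pairs of the 8 tested genes. Of the 28 Pearson coefficients 22 were positive, with a median of 0.45, and none passed an adjusted p of 0.05 in two-sided permutation tests (7 had an unadjusted p under 0.05, Shh and Ihh among them). Ptch1 and Gli1, the pair of target genes, had r = 0.80 (permutation p = 0.00366, adjusted over 28 pairs p = 0.0512) and Spearman's rho = 0.89 (permutation p = 0.00055, adjusted p = 0.0154), so that the rank coefficient passed the threshold and the linear one did not. The coefficient was 0.80 within the 6 KO tumours (exact permutation p = 0.0444, not adjusted) and 0.82 without WT replicates A and B, the tumours farthest from the median of Ptch1. Tumours ranked much alike in Ptch1 and Gli1, with WT replicate D highest in both.

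Ptch1 followed not only Gli1 but also the length trend of the tumours. Its log2 level and the length trend of the tumours had r = 0.93 (n = 11), against 0.73 for Gli2, 0.59 for Gli3, 0.59 for Gli1 and 0.58 for Smo, and Ptch1 has the longest exon sequence of the members, 14185 bases. The ligands, with shorter exon sequences, had coefficients of 0.29 (Shh), 0.29 (Ihh) and -0.35 (Dhh). With the trend on gene length removed from each tumour, an alternative chosen after seeing the data, Ptch1 and Gli1 had r = 0.87 (permutation p = 2e-05, adjusted p = 0.00056). The origin of the length trend, and its part in the level of Ptch1, was not tested.

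Ptch1 also had positive coefficients with Smo, Gli2 and Gli3. It had r = 0.67 with Gli3, 0.65 with Gli2 and 0.61 with Smo (adjusted permutation p = 0.169, 0.169 and 0.179), and within KO tumours these were 0.25, 0.04 and 0.74. Without WT replicate B, Ptch1 and Smo had r = 0.86 (permutation adjusted p = 0.026). Gli1 had r = 0.62 with Gli2 and 0.66 with Ihh (adjusted permutation p = 0.179 and 0.169), and without the 2 tumours farthest from the median of Gli1 and of Ihh, respectively, the coefficients were 0.33 and 0.49. Dhh, the most abundant ligand, had negative coefficients with all 5 genes downstream of it, from -0.15 with Gli3 to -0.59 with Gli2 (adjusted permutation p = 0.179 for Gli2). Within KO tumours these were 0.61 with Smo, 0.007 with Ptch1, -0.02 with Gli1, -0.39 with Gli2 and -0.56 with Gli3. With the length trend Dhh had r = -0.35 and the 5 genes 0.58 to 0.93, and the part of that trend was not tested.

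**Figure D4:**
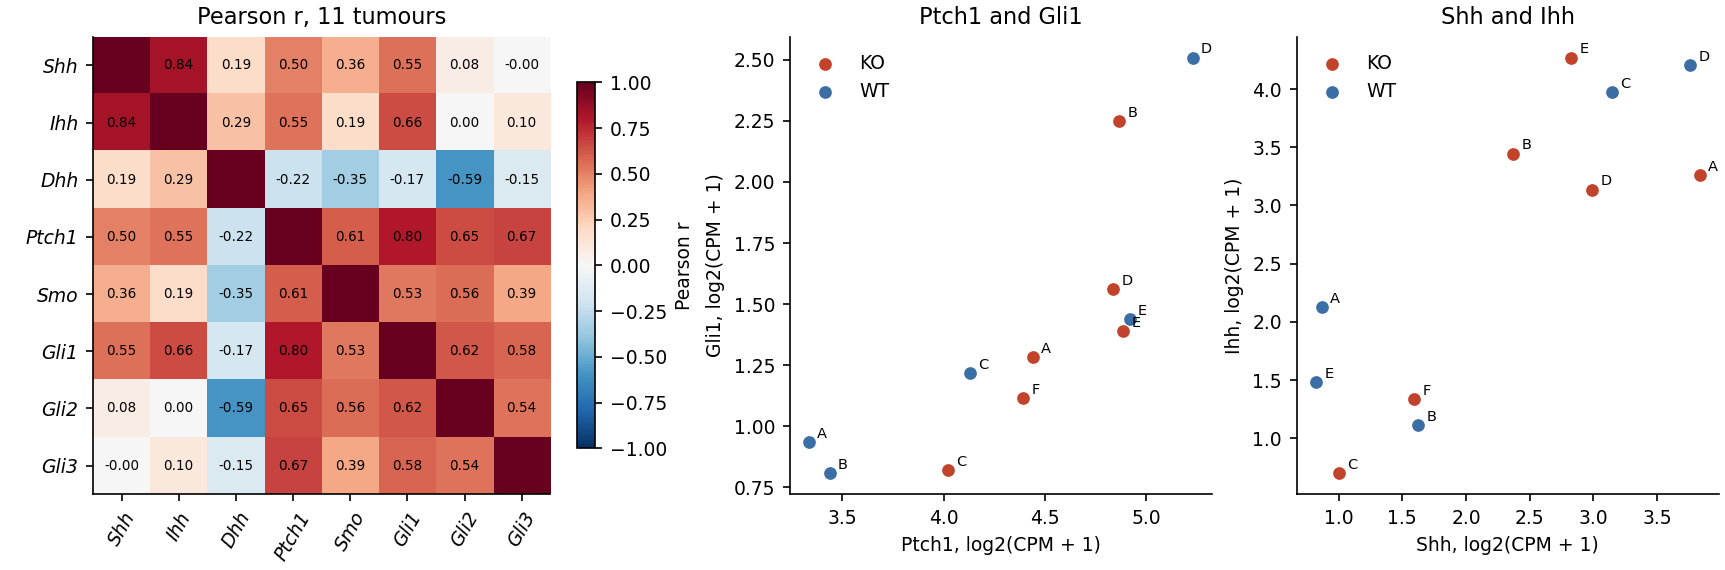
Left, Pearson r between tested members over 11 tumours on the log2(CPM + 1) scale. Middle and right, Ptch1 against Gli1 and Shh against Ihh in each tumour (KO red, WT blue, letters are replicates): Ptch1 and Gli1 have r = 0.80, and Shh and Ihh show a lower set of 5 and an upper set of 6 tumours.

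Marker genes of the cell types that could hold the pathway were set beside the members, in 32 correlations of the 8 tested members with the mean log2(CPM + 1) of epithelial, fibroblast, endothelial and Schwann cell lists. None of the 32 passed an adjusted permutation p of 0.05. Ihh had r = -0.69 with the fibroblast list (permutation p = 0.0234, adjusted p = 0.203) and -0.45 without KO replicates C and F, the tumours richest in fibroblast markers. The Schwann cell list had r = 0.73 with Ihh, 0.67 with Shh and 0.67 with Dhh (adjusted permutation p = 0.203 for each), yet defining markers of that cell type were nearly absent: Sox10 had at most 1 count in a tumour and Cdh19 at most 1. The list was carried by Mbp (18.9 to 72.3 CPM), Erbb3 (1.08 to 42.6 CPM) and S100b (1.21 to 21.4 CPM), genes that other cell types also express.

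Without WT replicates A and B, an alternative chosen after seeing the data, 4 of the 32 passed the adjusted threshold: Shh and Ihh with the fibroblast list, and Dhh with the epithelial and the Schwann cell lists. Between genotypes the marker lists themselves overlapped in summed level. The KO mean was lower for 8 of 8 epithelial markers and higher for 9 of 10 fibroblast markers. Their median log2 fold changes were -0.62 and 0.40, against -0.03 over all tested genes. Summed epithelial markers ran from 2721.6 to 5609.3 CPM in KO and 3103.5 to 9473.9 CPM in WT tumours, with 3 of 8 markers lower at an unadjusted p under 0.05 and 0 after adjustment (edgeR). Over all tested genes 15.5% were lower at an unadjusted p under 0.05. Fibroblast markers ran from 4546.6 to 9679.2 CPM in KO and 2606.8 to 9546.6 CPM in WT tumours, with 0 of 10 at an unadjusted p under 0.05. The part of cell content in the levels of the members was not tested.

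Genes whose level was most like that of a member were sought among 14889 genes with a mean of at least 1 CPM. For Gli1 they were Ikbkg (r = 0.94), Sgsm2 (0.93), Slc9a8 (0.91), Slc7a4 (0.90) and Mllt3 (0.88). For Ptch1 they were Nbr1, Dhx57, Prepl, Numb and Nfrkb, with r between 0.97 and 0.98, and for Dhh Ywhaz, Cldn18, Phlda1, Scmh1 and Samd5, with r between 0.87 and 0.88. All coefficients are over the same 11 tumours, which share the length trend given above, and no known Hedgehog target of the lists below was among these 15 genes.

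Other genes of the pathway were followed in 5 lists of 62 genes, of which 60 were tested. None of the 60 passed the adjusted threshold. At an unadjusted p under 0.05 were 9 genes (15%), 4 higher and 5 lower, beside 24% of all tested genes. The mean was higher in KO tumours for 42 and lower for 18, and the median log2 fold change was 0.14, against -0.03 over all tested genes. Without WT replicates A and B, in which long genes were low, 0 were higher and 4 lower at an unadjusted p under 0.05 (edgeR). Over all genes these shares were then 6.52% and 7.42%. With a covariate for the ribosomal RNA share 0 were higher and 4 lower, beside 4.37% and 4.52% of all genes.

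Of the 7 genes for ligand processing and release, 1 was higher and 1 lower at an unadjusted p under 0.05, with a median log2 fold change of 0.36. Lrp2, the endocytic receptor megalin that binds Shh, had the lowest p of the 60 genes and a log2 fold change equal to -2.78 (SE 0.93, edgeR unadjusted p = 0.0103, adjusted p = 0.116). Its level was 22.4 CPM in WT replicate C and 25.0 CPM in WT replicate E, and between 0.162 and 3.25 CPM in the other 9 tumours. Scube3, a secreted factor of a family that helps release ligand, had a log2 fold change of 1.97 (edgeR unadjusted p = 0.0496, adjusted p = 0.208). KO replicate F was the highest tumour, at 8.25 CPM, and without it the log2 fold change was 0.66.

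Among co-receptors and surface modulators, 2 of 8 tested genes were higher and 0 lower at an unadjusted p under 0.05, with a median log2 fold change of 0.47. Boc, a co-receptor for ligand, was at 4.74 ± 1.82 CPM (SD, n = 6) with PKN2 deleted and 2.55 ± 1.33 CPM (SD, n = 5) without deletion, and its log2 fold change was 0.89 (SE 0.40, edgeR with adjusted p = 0.197). Mgrn1, a ubiquitin ligase that lowers surface SMO, had 0.39 (SE 0.16, edgeR adjusted p = 0.156). The highest WT tumours lay among the KO tumours for both genes. Gpc5 had 0 counts in every tumour and was not tested.

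Transduction and GLI control comprised 19 genes, 1 higher and 1 lower at an unadjusted p under 0.05, with a median log2 fold change of 0.06. Kif7, a ciliary kinesin that regulates GLI proteins, was between 2.41 and 3.13 CPM in KO tumours and was 1.52, 1.4998, 1.52, 1.06 and 3.16 CPM in WT replicates A to E. Its log2 fold change was 0.67 (SE 0.30, edgeR adjusted p = 0.196). Without WT replicate E, the only WT tumour at the KO level, it was 1.01 and passed the threshold (edgeR adjusted p = 0.0364). In that fit 3.63% of all tested genes were called higher and 7.46% lower. For Kif7 the log2 fold change was 0.49 with a ribosomal RNA covariate and 0.54 without WT replicates A and B, neither past the threshold. Ulk3, a kinase that acts on GLI proteins, had -0.35 (SE 0.15, edgeR adjusted p = 0.176).

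The downstream targets had 0 of 10 tested genes higher and 2 lower at an unadjusted p under 0.05, with a median log2 fold change of 0.27. Mycn, a growth regulator, had a log2 fold change of -2.35 (SE 0.81, edgeR unadjusted p = 0.0128, adjusted p = 0.124). It was 81.0 CPM in WT replicate D and between 5.63 and 14.1 CPM in the other WT tumours, against 0.42 to 12.2 CPM in KO tumours, and without WT replicate D the log2 fold change was -1.22. Ccnd2, a cyclin, had -0.78 (SE 0.33, edgeR adjusted p = 0.176). Foxl1 had at most 7 counts and was not tested.

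Of 16 primary cilium genes, 0 were higher and 1 lower at an unadjusted p under 0.05, with a median log2 fold change of 0.07. B9d1, of the ciliary transition zone, was between 7.48 and 14.5 CPM in KO tumours and was 22.9, 32.8, 22.3, 14.6 and 9.21 CPM in WT replicates A to E. Its log2 fold change was -0.81 (SE 0.29, edgeR adjusted p = 0.131), and -0.996 without WT replicate E (edgeR adjusted p = 0.0353). In that fit 7.46% of all tested genes were called lower. A covariate for the ribosomal RNA share moved the log2 fold change of B9d1 to -0.22.

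**Figure D5:**
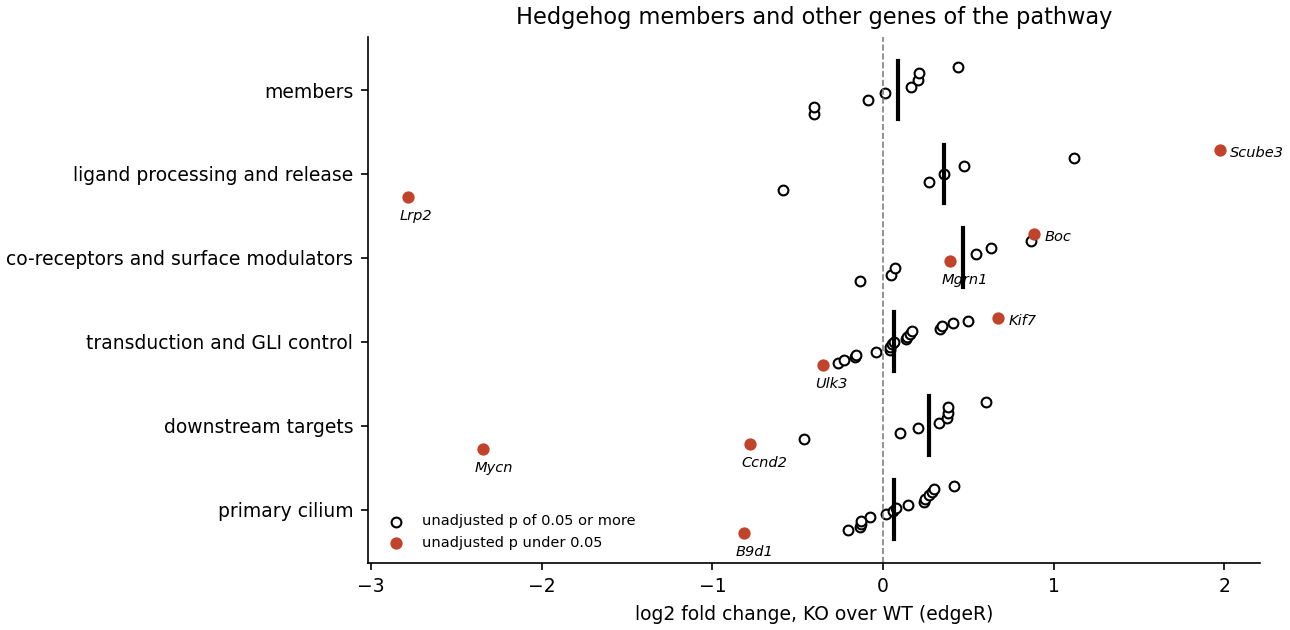
Log2 fold change of KO over WT tumours for the tested members and for the tested genes of the 5 pathway lists (1 point per gene; thick bars are list medians). Filled points have an unadjusted edgeR p under 0.05; no point passes the adjusted threshold, and the 8 tested members lie between -0.41 and 0.44.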

How the data were processed

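RNA was measured in 11 tumours, and groups and replicate letters were taken from the sample titles. Per the study's methods and the submitters' processing notes, reads were trimmed with Trimmomatic, aligned in strand-specific mode to GRCm38 (mm10) with HISAT2 (version 2.1.0) and counted over exons with HTSeq (version 0.11.2), keeping uniquely aligned reads. The authors deposited whole-number raw counts per Ensembl gene. They also deposited a normalised signal, each value being the raw count over 1 factor for its sample. Raw counts were used for all tests, and the deposited normalised signal only as an alternative scaling. Of 54232 identifiers, 54165 matched a symbol in GENCODE M21 (GRCm38).

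KO and WT tumours were compared in edgeR (version 4.0.16, under R version 4.3.3) by glmQLFTest, with TMM factors, the filterByExpr filter and genotype as the only term, and p-values were Benjamini-Hochberg adjusted over 16536 genes. The standard error is |log2 fold change| / sqrt(F), and 95% intervals use the t distribution of the fit. The labels do not say that tumours come from separate litters or cages, so p-values measure the spread between these tumours. Letters A to E mark different animals in the groups, and no block was used. Correlations used log2(CPM + 1), a pseudocount of 1 CPM and 100000 permutations (exact enumeration below 10 tumours). Intervals and floors cover counting and replicate error only, and the fits were tested on simulated data.

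The members and the gene lists were chosen with earlier results of these data known. Named were all members, for each pathway list the genes past the threshold or else up to 2 per direction with the smallest unadjusted p under 0.05, and the 5 genes most like Gli1, Ptch1 and the most abundant ligand. Correlations with marker lists, and the sets of tumours by Shh and Ihh, were added after values had been seen. Alternatives were DESeq2 (version 1.42.0) and its size factors, other filters, each tumour left out, a replicate block, WT replicates A and B left out, a ribosomal RNA covariate and a gene length offset.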

Additional observations from a re-analysis of the deposited data

Results flagged for a closer look

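No Hedgehog member had a tumour that stood apart from the rest of its group by Dixon's 95% criterion. Of 36 groups of values examined, members and marker lists in KO and WT tumours, 2 met it, where chance gives about 1.8. The acinar marker list had a mean log2(CPM + 1) of 5.4 in KO replicate E, against 0.446 to 0.833 in the other KO tumours and 0.61 to 7.02 in WT tumours, highest in WT replicate E and next in WT replicate A (4.09). The islet marker list was at 3.2 in KO replicate F, against 0.103 to 0.267 in the other KO tumours and 0.033 to 4.61 in WT tumours, again highest in WT replicate E and next in WT replicate A (2.65). The most abundant of these genes in the affected tumours were the protease precursor Ctrb1, up to 359 CPM, and the insulin gene Ins2, up to 25.8 CPM in KO tumours. KO replicate E was highest in Ihh among KO tumours and KO replicate F lowest in Dhh, whereas WT replicate E, with more of both marker lists, had 1.80 CPM of Ihh and 24.8 CPM of Dhh. The part of pancreatic tissue in those levels was not tested. Without KO replicate E or F no member passed the edgeR threshold.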

How the results depend on the processing

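The number of Hedgehog members called was 0 in either direction under all 19 alternatives, as was the number without overlap under all 12 run for it. Leaving out a tumour gave 0 to 1 pathway genes higher and 0 to 1 lower; the 1 higher was Kif7 and the 1 lower B9d1, both without WT replicate E, and the cause was not tested. The number of correlated pairs was 0 to 1 when a tumour was left out, with 1 pair (Ptch1 and Gli1) without KO replicate B and 1 (Ptch1 and Smo) without WT replicate B, and 2 (Shh and Ihh, Ptch1 and Gli1) with the gene length trend removed. Over all genes the calls moved strongly, from 3 higher and 0 lower to 203 and 651 without WT replicate D, 608 and 1248 without WT replicate E, 595 and 900 with DESeq2, 76 and 45 with the gene length offset, 39 and 6 without a filter, 30 and 2 without KO replicate F, and 0 in both directions with the ribosomal RNA covariate (1470 at an unadjusted p under 0.05). The sign of the log2 fold change differed from the reported one in 8 alternatives for Ihh, 4 for Gli1, 4 for Shh and 2 for Ptch1, and in none for Dhh, Smo, Gli2 and Gli3.

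Same-lettered KO and WT tumours did not deviate together, with correlations of 0.16, 0.02, -0.17, 0.13 and 0.06 for letters A to E. With a replicate block over letters A to E, without KO replicate F, edgeR called 0 members and 0 pathway genes, and 7 genes higher and 1 lower over all genes; Ihh was at 0.73, Shh at 0.88 and Dhh at -0.29. Only KO replicate A correlated best with its own letter. Depth limits Hhip, which was below 3 counts in each tumour, and Gli1, with as few as 9.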

Other observations

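Markers of immune and vascular cells were set beside the members. All 5 B cell markers had an unadjusted p under 0.05 and a higher KO mean, 0 passed after adjustment (edgeR), and 3 of the 5 had no overlap between genotypes, with a median log2 fold change of 2.47. Their summed level was 33.5 to 101 CPM in KO and 6.25 to 30.25 CPM in WT tumours. Over all tested genes 8.57% were higher at an unadjusted p under 0.05 and 1.59% were higher without overlap. Macrophage markers had 2 of 5 higher at an unadjusted p under 0.05 (Csf1r and Adgre1), and endothelial markers 0 of 6, T cell markers 0 of 5 and mesothelial markers 0 of 4 tested. No Hedgehog member separated the genotypes in that way.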
